A study of Mus musculus with 3 samples.

Results

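The 4 Hox gene clusters of the mouse were examined in the caudate putamen, the dorsal striatum, for 2 chromatin signals. One was histone H3 trimethylated at lysine 4 (H3K4me3), a mark of active and poised promoters, and the other was binding of retinoic acid receptor beta (RARβ). All peaks of both peak lists that shared at least 1 bp with a fixed window around each cluster were taken. In build mm9 the windows were chr6:52100000-52220000 for Hoxa, chr11:96055000-96235000 for Hoxb, chr15:102745000-102870000 for Hoxc and chr2:74495000-74615000 for Hoxd. By the rule they hold 39 Hox genes, which was not checked against an mm9 annotation, with 11 in Hoxa, 10 in Hoxb, 9 in Hoxc and 9 in Hoxd. Of 44046 peaks in all, 9 met this rule, namely 8 of 35971 H3K4me3 peaks and 1 of 8075 RARβ peaks.

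Chromatin immunoprecipitation followed by sequencing was done on wild-type male mice of mixed C57BL/6J x 129SvEms/j background, bred from heterozygous crosses that also gave RARβ-null littermates. Age and the number of animals per library are not given in the sources used here. There was 1 library per antibody, against RARβ, H3K4me3 and GFP, and the third of these is not analysed here. No value therefore has a replicate error, and no difference below was tested between animals. Intervals are exact Poisson 95% intervals of tag or peak numbers and cover counting error only. The H3K4me3 library had 47461843 tags after removal of redundant tags, and the RARβ library had 2237580. The redundant tags removed were 21.4% of the H3K4me3 library and 55.2% of the RARβ library.

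Hox genes encode homeodomain transcription factors that set the identity of body segments along the head-to-tail axis. Within a cluster they are ordered along the chromosome as they are ordered along the body, with the low-numbered genes expressed farthest forward, in the hindbrain. In embryos, retinoic acid bound to its receptors induces the low-numbered genes first, through response elements inside and beside the clusters. The forebrain, from which the striatum arises, lies in front of the domain where Hox genes are expressed, and in such cells the clusters are usually held silent by Polycomb proteins. CpG-rich promoters kept silent in this way can still carry some H3K4me3.

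In the Hoxb, Hoxc and Hoxd clusters the order of the genes along rising coordinates, from RefSeq (GRCm38.p6), runs from Hoxb13 to Hoxb1, Hoxc13 to Hoxc4 and Hoxd13 to Hoxd1, except that Hoxb3 and Hoxd3 start before Hoxb4 and Hoxd4. The clusters also hold the microRNA genes Mir196b (Hoxa), Mir196a-1 and Mir10a (Hoxb), Mir196a-2 and Mir615 (Hoxc) and Mir10b (Hoxd). No mm9 annotation was used, so peaks are placed by their distance from the window start, and none is assigned to a single Hox gene.

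RefSeq promoter sequences, 250 bases before to 50 bases after a gene's start in build GRCm38.p6, were matched by symbol for 22 of the 39 Hox genes, with 24 promoters. Of these, 10 were from Hoxa, 10 from Hoxd, 3 from Hoxb and 1 from Hoxc. They show part of the DNA the 2 signals were looked for on, and little of Hoxb and Hoxc. Hoxa10 and Hoxd11 are each counted with 2 promoters. Of the 24, 20 had more CpG dinucleotides than the median promoter, which has 7, against 48.6% of all 32851 promoters. That comparison set covers 27025 gene symbols, more than the 21883 protein-coding genes of RefSeq, so it is not limited to protein-coding genes as the Hox set is. The median Hox promoter had 14.5 CpGs, and the range was 4 to 45. The richest was that of Hoxa13, a gene of the tail end of the axis, with 81.0% G and C. It is shown with its 45 CpGs in capitals.
Hoxa13, chr6:52260831-52261130, minus strand: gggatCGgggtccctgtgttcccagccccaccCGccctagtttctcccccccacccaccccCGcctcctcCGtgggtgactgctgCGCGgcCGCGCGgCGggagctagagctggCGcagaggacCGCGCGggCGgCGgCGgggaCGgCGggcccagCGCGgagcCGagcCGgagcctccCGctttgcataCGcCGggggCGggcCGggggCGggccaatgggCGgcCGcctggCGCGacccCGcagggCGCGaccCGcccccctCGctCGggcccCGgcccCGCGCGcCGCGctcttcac

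**Figure D1:**
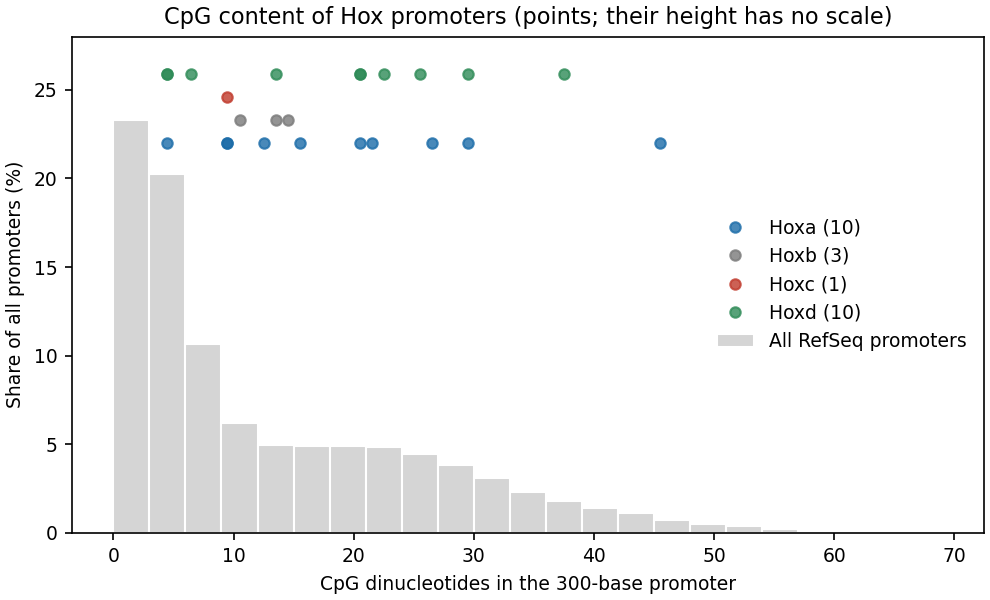
CpG dinucleotides per promoter of 300 bases (x axis) for all RefSeq promoters as grey bars (y axis, percent of promoters) and for Hox promoters as points coloured by cluster, whose height has no scale. Most Hox promoters lie to the right of the tallest bars, and the points span 4 to 45 CpGs.

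Retinoic acid receptors bind pairs of hexamers in direct repeat. The consensus hexamer is AGGTCA, and GGTTCA was searched as well, as was AGTTCA, each on both strands. AGGTCA was in 7 of 24 Hox promoters, or 29.2%, against 16.3% of all promoters. By cluster it was in 1 of 10 Hoxa, 1 of 3 Hoxb, 1 of 1 Hoxc and 4 of 10 Hoxd promoters. GGTTCA was in 3 of 24 (12.5%), against 10.4%, and AGTTCA in 2 of 24 (8.33%), against 14.0%. A direct repeat of any of them spaced by 1, 2 or 5 bases was in none of the 24, and in 0.371% of all promoters. This says only that these letters are not in these short windows. One promoter per cluster with AGGTCA is shown, chosen after the search, with the hexamers (either strand) in capitals. In Hoxb4, Hoxc4 and Hoxd4, which are paralogs of one another, every hexamer lies on the opposite strand and reads as its reverse complement. Hoxc4 also has AGTTCA, and Hoxd4 also has GGTTCA. GRCm38.p6 positions cannot be set against the mm9 peaks.
Hoxa5, chr6:52204538-52204837, minus strand: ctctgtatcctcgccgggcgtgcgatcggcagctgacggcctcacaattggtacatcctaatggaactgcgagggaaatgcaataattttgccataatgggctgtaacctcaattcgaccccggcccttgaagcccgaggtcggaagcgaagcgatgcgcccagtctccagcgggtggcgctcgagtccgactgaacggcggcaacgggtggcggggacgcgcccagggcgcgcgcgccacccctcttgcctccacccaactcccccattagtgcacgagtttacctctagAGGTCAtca
Hoxb4, chr11:96318017-96318316, plus strand: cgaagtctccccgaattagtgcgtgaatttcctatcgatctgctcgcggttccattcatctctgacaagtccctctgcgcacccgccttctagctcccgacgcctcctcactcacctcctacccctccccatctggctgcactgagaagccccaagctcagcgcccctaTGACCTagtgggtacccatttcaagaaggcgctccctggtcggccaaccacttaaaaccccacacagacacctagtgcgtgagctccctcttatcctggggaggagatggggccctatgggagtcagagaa
Hoxc4, chr15:103034145-103034444, plus strand: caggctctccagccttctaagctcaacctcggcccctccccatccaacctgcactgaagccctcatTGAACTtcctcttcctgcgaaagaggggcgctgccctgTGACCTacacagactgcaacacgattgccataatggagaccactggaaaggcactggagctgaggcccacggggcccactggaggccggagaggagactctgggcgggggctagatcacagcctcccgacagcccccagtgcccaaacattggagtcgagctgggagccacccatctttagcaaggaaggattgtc
Hoxd4, chr2:74721728-74722027, plus strand: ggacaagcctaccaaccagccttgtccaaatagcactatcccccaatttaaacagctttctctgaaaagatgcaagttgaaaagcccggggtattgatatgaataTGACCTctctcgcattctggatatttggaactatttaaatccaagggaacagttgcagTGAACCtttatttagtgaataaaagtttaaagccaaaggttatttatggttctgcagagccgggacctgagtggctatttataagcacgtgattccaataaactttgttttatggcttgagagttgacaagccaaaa

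H3K4me3 peaks covered little of the clusters. The 39 Hox genes shared 8 peaks, or 0.205 per gene, while the whole list has 1.64 peaks per protein-coding gene of RefSeq. These 2 values are not alike. The whole-list value counts peaks anywhere in the genome, between genes too, and the Hox value only those in windows that pack 39 genes into 545 kb. The gap between them therefore also reflects gene packing, which the values per Mb below leave out. Hoxd had 4 peaks, Hoxa 2, Hoxc 2 and Hoxb 0. Peaks covered 10.1 kb of the 545 kb, a share of 1.86%. This is below the 4.36% of the effective genome, and below the 3.09% of the 2637 Mb of full length from the start of each chromosome to near its last peak. By number the windows had 14.7 peaks per Mb (6.34 to 28.9). The genome had 19.2 per Mb of effective size and 13.6 per Mb of full length, so the direction depends on the denominator, and the interval includes both.

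**Figure D2:**
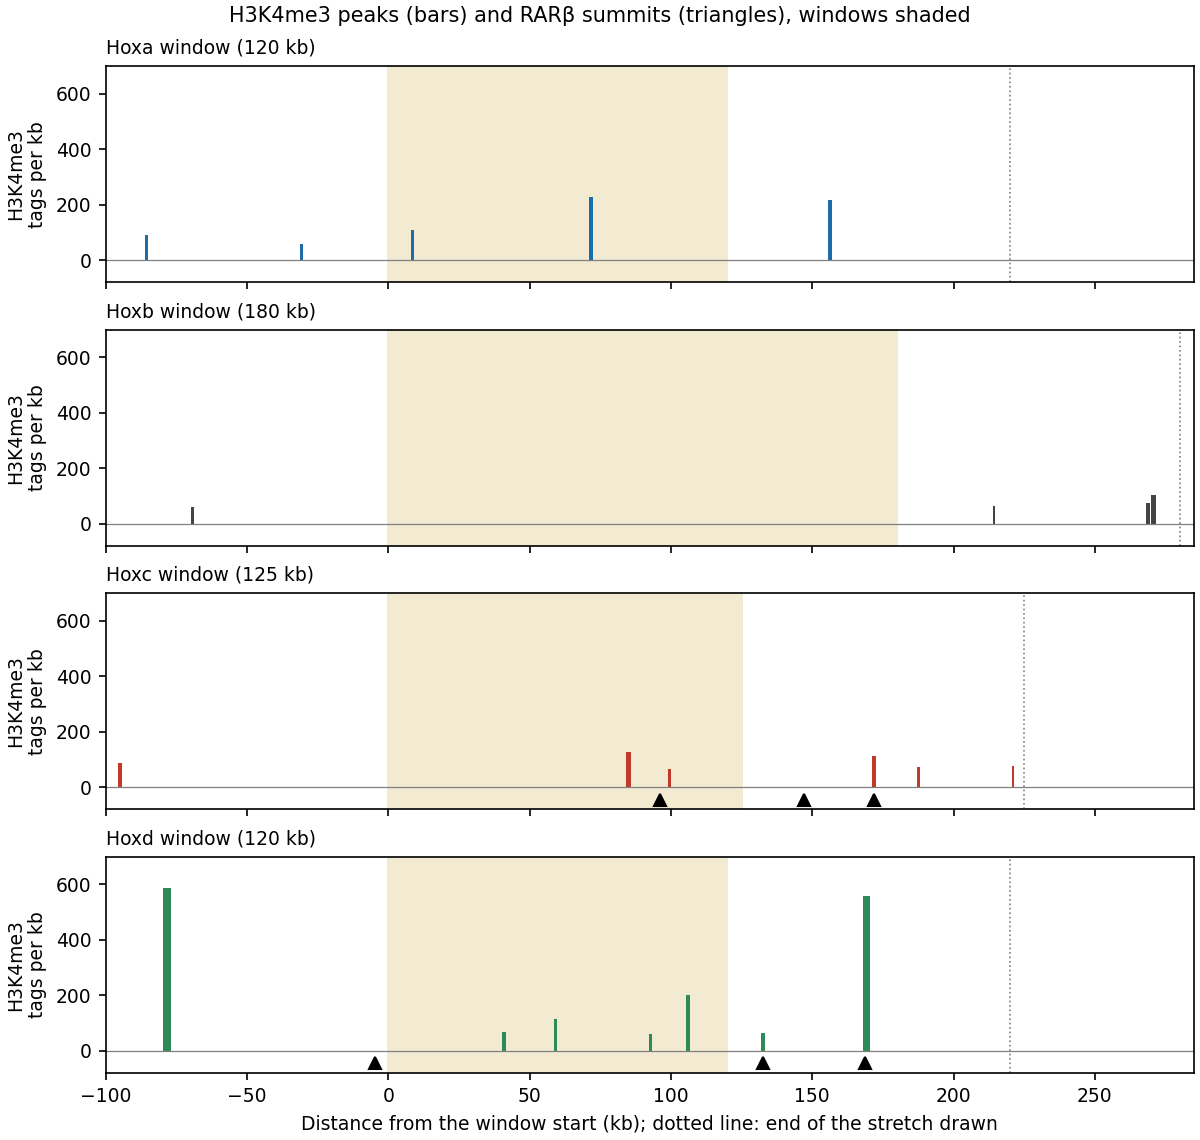
H3K4me3 peaks as bars (y axis, tags per kb of peak; bars under 1 kb wide are drawn 1 kb wide) and RARβ summits as black triangles, by distance from the start of each window in kb (x axis), with the window shaded and 100 kb drawn on either side. Hoxb has no bar in its window, Hoxd has 4 bars, and the only triangle inside a window is in Hoxc.

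Hoxb, with 10 Hox genes, had no H3K4me3 peak in 180 kb. The nearest peaks lay 68.6 kb below the window (at lower coordinates, 67 tags in 1092 bp) and 33.8 kb above it (52 tags in 812 bp), so 282 kb passed without a peak. Of 35950 gaps between neighbouring peaks in the list, 4.08% were as long or longer, and the median gap was 24.0 kb. Of tiles of 180 kb, the length of the window, 35.2% held no peak, and tiles as long as the 282 kb stretch were not counted. The tiles run from the first base of each chromosome and were not matched for gene content. The 500 kb on either side of Hoxb had 31 peaks per Mb, against 13.6 per Mb of full length, so the tile share is no measure for a neighbourhood like this one. No peak in the list had fewer than 27 tags, and none of 935 to 1518 bp outside the windows had fewer than 47. The list holds only called peaks, so a weaker mark over Hoxb could not be seen in it.

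Hoxd had the most peaks. The first, chr2:74535383-74536596, was 1214 bp wide and had 83 tags (66.1 to 103) at 68.4 tags per kb. The second, chr2:74553545-74554677, had 128 tags (107 to 152) in 1133 bp, or 113 tags per kb. The third, chr2:74587348-74588282, was the narrowest of all 8 at 935 bp and the thinnest, with 55 tags (41.4 to 71.6) and 58.8 tags per kb. The fourth, chr2:74600489-74601785, stood out in this cluster with 259 tags (228 to 293) in 1297 bp, or 199.7 tags per kb. Its summit lay at 88.5% of the window's length, towards the end where RefSeq places the low-numbered genes, Hoxd1 last. Its fold enrichment over local background, as given by the authors' peak caller, was 5.92, below the 8.58 of the second peak, although it had more tags.

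Both Hoxa peaks had over 100 tags. The first, chr6:52107941-52109169, lay 8.52 kb from the window start by its summit, with 133 tags (111 to 158) in 1229 bp and a fold enrichment of 9.85. The second, chr6:52170897-52172414, had the most tags, the highest tags per kb, the highest fold enrichment and the highest score of the 8 H3K4me3 peaks. It had 349 tags (313 to 388) in 1518 bp, 229.9 tags per kb, and a fold enrichment of 15.45. Its summit lay at 59.7% of the window, and 61.7 kb without a peak separated it from the first.

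Hoxc had its peaks in the upper part of the window, after 84.2 kb without any. The first, chr15:102829218-102830681, had 187 tags (161 to 216) in 1464 bp and a fold enrichment of 8.57. The second, chr15:102843861-102845189, had 88 tags (70.6 to 108) in 1329 bp and the lowest fold enrichment of the 8, 3.9. Along rising coordinates RefSeq lists the high-numbered genes of this cluster first, starting with Hoxc13.

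All 8 peaks were narrow, and none was among the dense, wide peaks of the list. Widths ran from 935 to 1518 bp with a median of 1263 bp, and all 8 were below the list median of 1679 bp. Wider than the widest of them were 56.0% of all H3K4me3 peaks. In tags, 6 of 8 were below the list median of 206, with a median of 130.5. The median fold enrichment was 7.245 against 10.27 in the list, with 7 of 8 below.

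**Figure D3:**
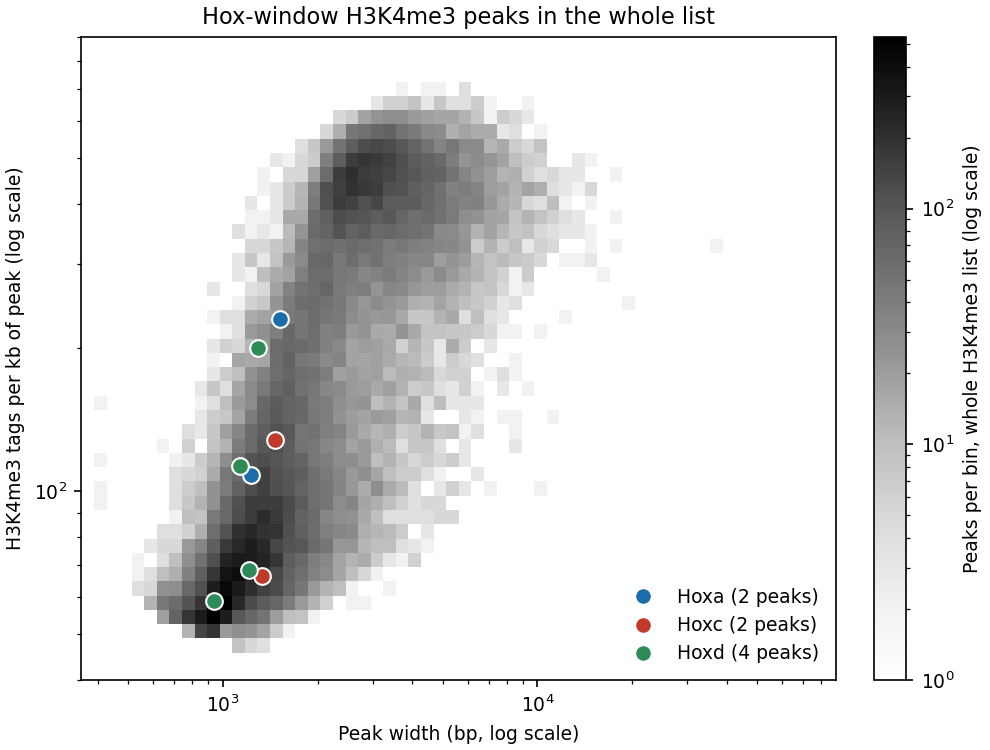
Tags per kb (y axis, log scale) against peak width (x axis, log scale) for all 35971 H3K4me3 peaks as a grey density and for the 8 Hox-window peaks as points coloured by cluster. The 8 points lie along the narrow arm of the cloud at 935 to 1518 bp, and none lies in the dense patch at the upper right.

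Per length the Hox peaks were less apart. Their median was 110.6 tags per kb, against 121 in the whole list and 110.4 in the 500 kb on either side of the windows. Of the 8, 5 were below the list median. Denser than the densest Hox peak were 35.4% of all H3K4me3 peaks. Narrow and wide peaks of the list differ in density, as the plot of width against density shows, so peaks of 935 to 1518 bp outside the windows were taken for comparison. These 13031 peaks had a median of 74.0 tags per kb, and 5 of the 8 Hox peaks were above it.

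Ordered by tags per kb, the 8 peaks are described in 3 steps, which were cut after seeing the values, where the intervals part. Hoxa peak 2 at 229.9 (206 to 255) and Hoxd peak 4 at 199.7 (176 to 226) had overlapping intervals. Next were Hoxc peak 1 at 128 (110.1 to 147), Hoxd peak 2 at 113 (94.3 to 134) and Hoxa peak 1 at 108 (90.6 to 128), which did not differ beyond counting error. Hoxd peak 1 at 68.4 (54.5 to 84.8), Hoxc peak 2 at 66.2 (53.1 to 81.6) and Hoxd peak 3 at 58.8 (44.3 to 76.6) formed the lowest step. Between steps the intervals did not overlap, since the cuts were placed there, and the steps are not classes of peak. The highest value was 3.91 times the lowest, while the widest peak was 1.62 times as wide as the narrowest. In bulk tissue, fewer cells with the mark and less mark per cell cannot be told apart.

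**Figure D4:**
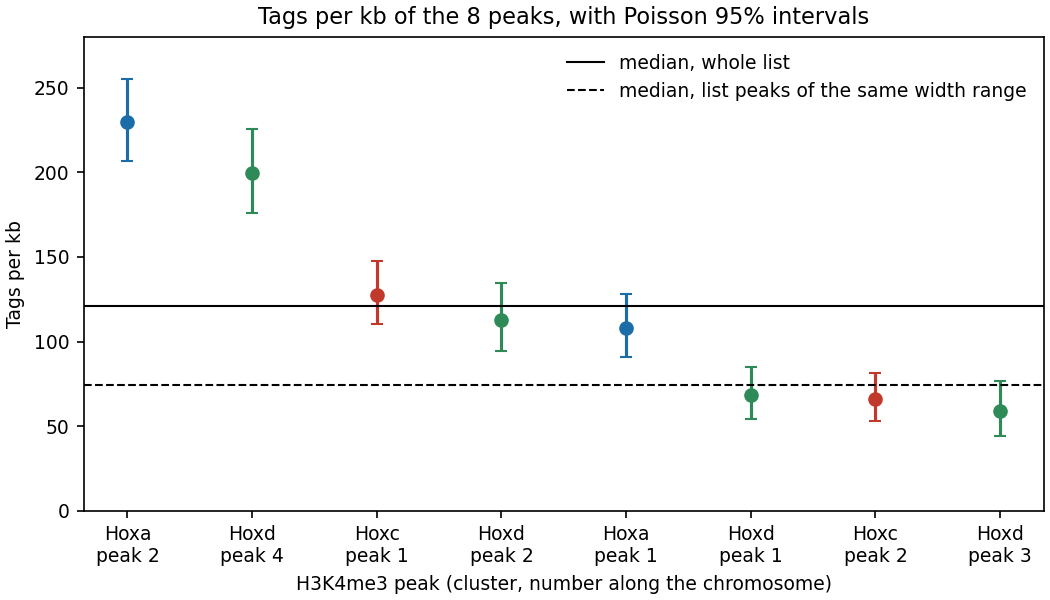
Tags per kb (y axis) of the 8 Hox-window H3K4me3 peaks in falling order (x axis, cluster and number along the chromosome), with exact Poisson 95% intervals as bars. The solid line is the whole-list median of 121 and the dashed line the median of 74.0 among list peaks of the same width range; 2 peaks lie clear above both.

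The genome was divided into 21972 tiles of 120 kb, the length of the Hoxa and Hoxd windows, as a background chosen after seeing the data. The tiles run from the first base of each chromosome and were not matched for gene content. Of them, 42.8% had no H3K4me3 peak. At least 4 H3K4me3 peaks, as in Hoxd, were in 16.2% of tiles. Of these 3568 tiles, 3.31% had no peak wider than 1518 bp, the widest Hox peak, and 14.2% had none denser than the densest Hoxd peak. At least 2 peaks, as in Hoxa and in the slightly longer Hoxc window, were in 38.4% of tiles, and 11.8% of those had no peak wider than 1518 bp. The 4 Hoxd peaks together had 525 tags, the 2 Hoxa peaks 482 and the 2 Hoxc peaks 275, while the median tile with a peak had 1218 tags. Of tiles with a peak, 35.3% had fewer tags than Hoxd, 33.9% fewer than Hoxa and 25.7% fewer than Hoxc. Having no RARβ peak is usual for a tile with an H3K4me3 peak, at 63.6% of 12561.

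The authors' empirical false discovery rate (FDR) was above 5% for all 8 peaks, between 12.48% and 20.98%. With that limit the windows held 0 peaks, while 35.0% of the whole list passed it. The deposited score, which rises as the peak's p-value falls, was 60.06 to 864.06 for the 8 peaks. The lowest FDR was that of Hoxc peak 2, which had the lowest score and the lowest fold enrichment, 3.9. The highest was that of Hoxa peak 1, with a score of 415.29 and a fold enrichment of 9.85. The FDR thus does not order the 8 peaks by strength. Of the 18224 other H3K4me3 peaks in the score range of the 8, 0 had an FDR of at most 5%, and their FDR ran from 12.48% to 21.62%. Matching on score largely fixes this outcome, so the count is no separate evidence about the Hox peaks. The control behind this FDR had 3703580 filtered tags, and the H3K4me3 library 12.8 times as many.

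The neighbourhoods of the clusters differed from one another. In the 500 kb on either side, peaks covered 2.94% of the length around Hoxa, 7.19% around Hoxb, 13.6% around Hoxc and 1.91% around Hoxd. Inside the windows the shares were 2.29%, 0, 2.23% and 3.82%. Hoxd was thus the one cluster with more cover inside than around it, and over all 4 the flanks had 3.45 times the cover of the windows. The flanks held 108 peaks, 27 per Mb (22.1 to 32.6), with a median width of 1626.5 bp. Of these, 62 were wider than the widest Hox peak and 31 denser than the densest, and 34 had an FDR of at most 5%. Of the 8 peaks bordering the windows, 7 had 57.9 to 218 tags per kb, within or near the range of the Hox peaks. The exception was a peak 77.0 kb below Hoxd, chr2:74415415-74418023, with 1532 tags in 2609 bp, 587 tags per kb and an FDR of 3.36%.

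**Figure D5:**
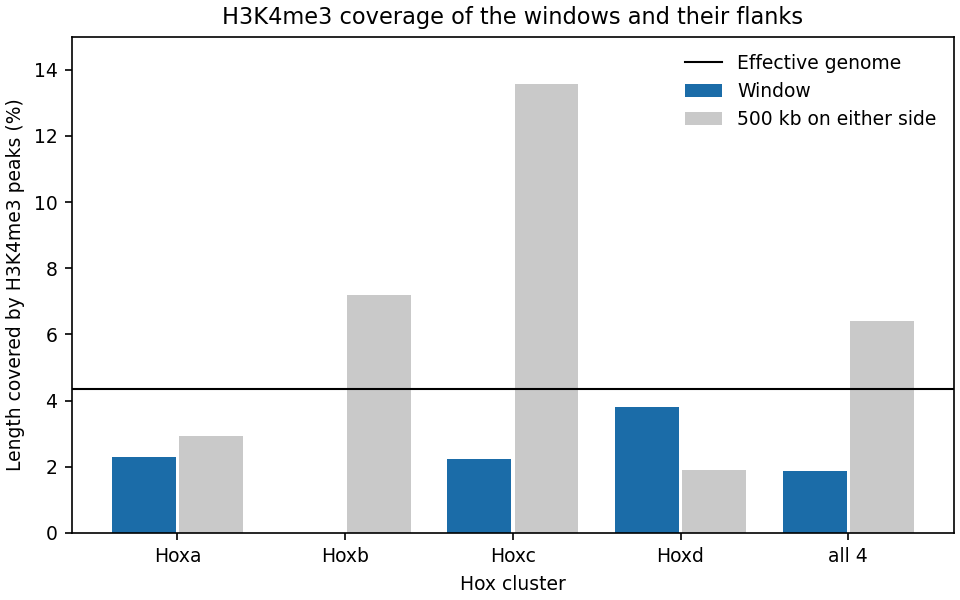
Share of length covered by H3K4me3 peaks (y axis, percent) in each Hox window (blue bars) and in the 500 kb on either side (grey bars), with the effective genome's 4.36% as a line. Hoxb has no blue bar, and Hoxd is the cluster whose blue bar is taller than its grey one.

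RARβ was found at 1 site in the 4 clusters, in Hoxc. The peak, chr15:102840833-102841469, was 637 bp wide and had 7 tags (2.81 to 14.4), a fold enrichment of 15.48, a score of 58.42 and an FDR of 0.16%. The number 7 is the smallest in the list, shared by 21.8% of RARβ peaks, and 14.3% of RARβ peaks had a lower score. The site lay outside the mark, between both Hoxc H3K4me3 peaks and 2.39 kb from the nearer, the second. Of all RARβ peaks, 64.9% overlapped an H3K4me3 peak. Outside the window the nearest RARβ peaks were 21.8 kb above, chr15:102891775-102892712 with 17 tags, and 116 kb below, chr15:102628386-102628887 with 7 tags.

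Hoxa, Hoxb and Hoxd had no RARβ peak in their windows. Around Hoxa the nearest were 269 kb below, chr6:51830757-51831314 with 11 tags, and 370 kb above, chr6:52589762-52590440 with 12 tags. Around Hoxb they were 368 kb below, chr11:95686164-95686749 with 8 tags, and 222 kb above, chr11:96457262-96458050 with 12 tags. All 4 of these lay in H3K4me3 peaks. The stretches without RARβ were 758 kb over Hoxa and 771 kb over Hoxb. Of 8054 gaps between neighbouring RARβ peaks, 10.5% and 10.3% were as long or longer, and the median was 93.4 kb. A fixed window falls in a long gap more often than in a short one, so these shares do not show that the stretches are rare. Of 120 kb tiles, 77.2% held no RARβ peak.

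Hoxd had RARβ close by on both sides. One peak, chr2:74490063-74490611, lay 4.39 kb below the window, beside the Hoxd13 end, with 9 tags and a fold enrichment of 23.21, and 44.8 kb from any H3K4me3 peak. The other, chr2:74627363-74628133, lay 12.4 kb above, beyond the Hoxd1 end, with 11 tags and the same fold enrichment. It overlapped a thin H3K4me3 peak of 99 tags, chr2:74626822-74628340. The 137 kb between them are not long for this list, since 42.0% of gaps were at least that long. These sites show how far the number depends on where the windows end, and 20 kb more on each side gave 3 RARβ peaks.

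The number of RARβ peaks in the clusters cannot be told from the genome's average at this depth. The density of the whole list, 4.32 per Mb of effective genome or 3.06 per Mb of full length, gives 2.35 or 1.67 for windows of this total length, and 1 peak has an interval of 0.0253 to 5.57. Tiles of 120 kb, the length of the shortest window, were without a RARβ peak in 77.2% of cases. No RARβ peak lay in any of the 8 Hox H3K4me3 peaks, and 0 of 8 allows a share of up to 37.5%. In the whole list 13.1% did, and 6.02% of the peaks of the same width range. In the flanks 24 of 108 did, of which 15 were around Hoxc, where 24 of the 37 flanking RARβ peaks lay. With 2237580 tags behind the RARβ list and at least 7 tags in each peak, weaker binding in the clusters could not be seen in this list of called peaks.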

How the data were processed

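Per the submitters' processing notes, bases were called with CASAVA 1.8.2, reads aligned with Bowtie, and build mm9 used. Per the file headers, MACS 1.4.2 called peaks on each library alone, against 1 shared control whose antibody is not named, at a p cutoff of 1e-05, keeping at most 1 tag per position. The smaller control was scaled towards the H3K4me3 library. The deposited tag counts per peak are not scaled by library size, and with this setting they are counts after redundant tags were removed. Fold enrichment, a ratio of summit pileup to local background, the score and the FDR in percent were deposited as the authors' peak caller gave them. The name of the score column was lost in the deposited tables, and the column was recognised from the MACS order and from values that start at 50.

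Tags per kb is the tag count over the peak width. Shares of covered length used merged peaks, and genome values used the effective size of 1.87e+09 bp. With 1 library per antibody no test was run. A count of 0 was taken to allow 3 counts. All H3K4me3 peaks of the windows, all RARβ peaks in them and the nearest outside are named, by rule. The members, windows and lists were chosen with earlier results of these data known, and the comparisons by tiles, gaps and FDR at like score were added after seeing the data. Overlap and coverage routines were tested on simulated data. Python 3.11.15, numpy 2.4.6, pandas 2.3.3, scipy 1.17.1 and matplotlib 3.10.9 were used.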

Additional observations from a re-analysis of the deposited data

How the results depend on the processing

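Of 49 alternatives, all planned, 7 moved a number of peaks or a covered share by over 1.5 times. With an FDR limit of 5% on H3K4me3 peaks, the windows held 0 peaks and 0% of their length was covered, so widths, densities and shares had no value. Without Hoxd, 4 H3K4me3 peaks were left. The number of RARβ peaks was 3 with windows widened by 20 kb, 6 with 100 kb, 0 without Hoxc and 0 among peaks of at least 10 tags. The median width was 1221.5 to 1396.5 bp and the median tags per kb 90.7 to 126.7. Most of these alternatives only leave out peaks, so their medians cannot pass the range of the 8. The share of H3K4me3 peaks with RARβ was 0 in 7 alternatives, of which only the one that allows a gap of 1 kb could have given another value. No paired analysis was possible because there was 1 library per antibody and no result comes from a test. Depth, after 55.2% of the tags were removed as redundant, limits the RARβ results, since a peak there can rest on 7 tags.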
